A study of Mus musculus with 10 samples.

Results

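The B-lymphoid progenitor genes followed here, in fetal liver with and without the imprinted microRNA gene Mir483, were Vpreb1, Igll1, Vpreb3, Cd79a, Cd79b, Ebf1, Pax5, Il7r and Rag1. The genes were taken by name, through their Ensembl identifiers, from a table of 55401 genes, and all 9 members were found and passed the filter on low counts. Liver RNA came from female fetuses at embryonic stage E18.5, 5 Mir483Pat-KO and 5 WT littermates. Mir483Pat-KO fetuses inherited a constitutive deletion of Mir483 from their father, so every cell of the fetus carried it. To make the line, C57BL/6N embryonic stem cells of 2 clones were injected into blastocysts. Chimeras were mated with albino B6 mice, and the colony was then maintained on C57BL/6J. The RNA was polyadenylated RNA of whole liver, in which fewer cells of a type and less RNA per cell cannot be told apart.

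The fetal liver is the main blood-forming organ before birth, and B cells develop there from lymphoid progenitors that respond to interleukin 7. The transcription factors EBF1 and PAX5 set and hold the B lineage. RAG1 and RAG2 together form the recombinase that cuts antibody gene segments, VPREB1 and IGLL1 form the surrogate light chain that pairs with a newly made heavy chain, and CD79A and CD79B carry the signal of that pre-B cell receptor into the cell.

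Library totals lay between 10831350 and 14765880 counts. The Mir483 gene had between 10 and 22 counts in each WT library and 0 counts in each Mir483Pat-KO library, as labelled. Over the 14098 genes tested with edgeR's quasi-likelihood F-test, 731 passed at a Benjamini-Hochberg adjusted p under 0.05, which is 5.19% of them, and 342 (2.43%) were higher in Mir483Pat-KO. With a fold change over 1.5 as well, 173 genes (1.23%) passed. Levels are CPM, read counts scaled to the total of the library and to TMM, a between-library factor of 0.973 to 1.03 here, and are listed for replicates 1 to 5 in order.

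Of the 9 members, 1 rose in Mir483Pat-KO liver and 0 fell. The gene that rose was Rag1, at 1.38-fold the WT level, and 0 members passed the fold limit of 1.5. The other 8 members did not pass the test in either direction. The median log2 fold change of the members was 0.11, with 6 above 0 and 3 below, beside 0.0042 over all genes tested. With 1 of 9 genes called, the count is too small to set apart from the 5.19% called over all genes.

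**Figure D1:**
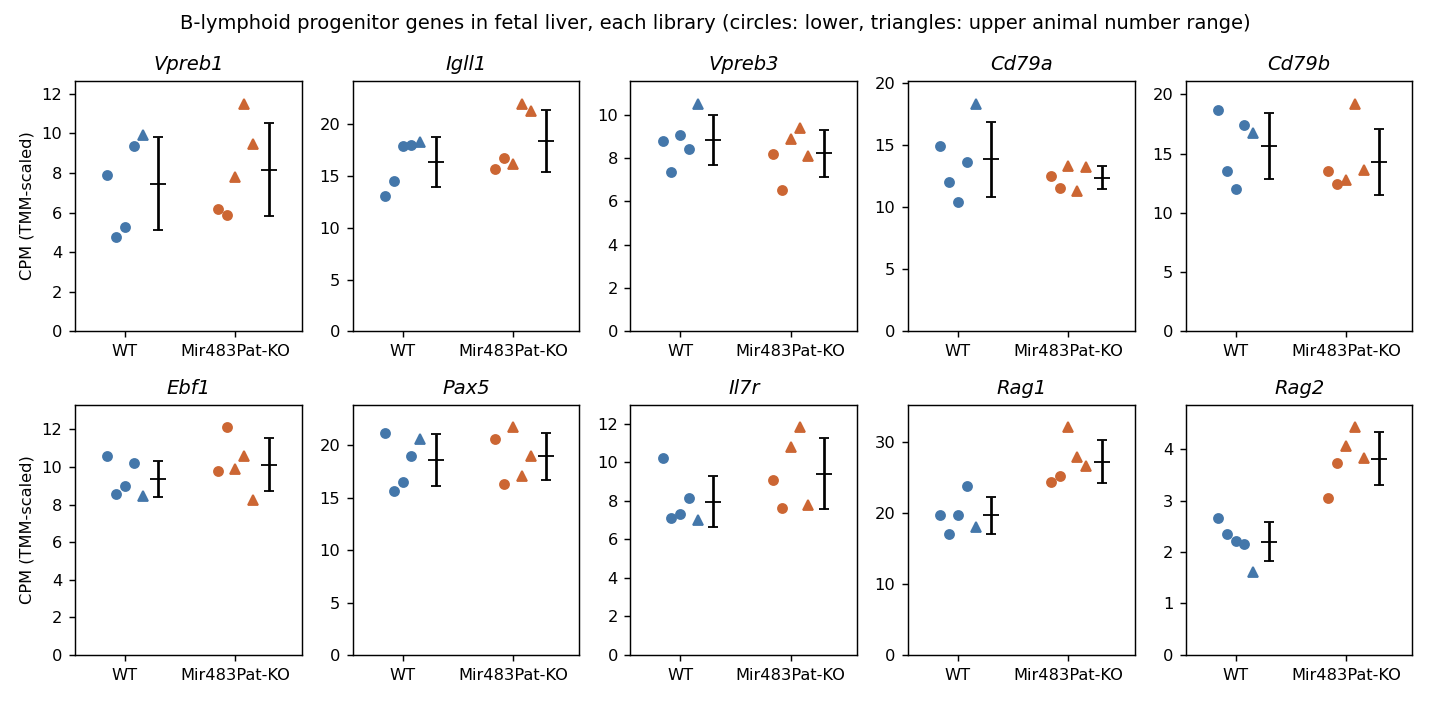
CPM (TMM-scaled) of the 9 members and of Rag2 in each of 5 WT (blue) and 5 Mir483Pat-KO (orange) libraries, with circles for the lower and triangles for the upper range of animal numbers and black bars for mean ± SD. Rag1 and Rag2 are the panels in which the groups do not overlap.

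The recombinase gene Rag1 lies on the minus strand of chromosome 2 (GRCm38, chr2:101638282-101649501). Its level was 19.8, 17.0, 19.7, 23.9 and 18.1 CPM in the WT libraries. In the Mir483Pat-KO libraries it was 24.4, 25.3, 32.1, 27.9 and 26.7 CPM. Every Mir483Pat-KO library lay above every WT library, by a small margin between WT replicate 4 and Mir483Pat-KO replicate 1. The groups did not overlap in 6.6% of all genes tested. Without TMM scaling these libraries crossed, at 24.2 and 24.0 CPM. The WT mean was 19.7 ± 2.64 CPM and the Mir483Pat-KO mean 27.3 ± 3.01 (SD, n = 5 each). The log2 fold change was 0.47 ± 0.10 (SE), with a 95% interval of the fold from 1.19 to 1.6 (edgeR adjusted p = 0.0169).

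The call for Rag1 was lost when Mir483Pat-KO replicate 4 was left out, at an adjusted p of 0.0524 with a log2 fold change of 0.45. The numbers in the sample descriptions fall into a range below 450, with 4 WT and 2 Mir483Pat-KO fetuses, and a range above it, with 1 and 3. They are called animal numbers here, and what they stand for is not given in the sources used. In the lower range the WT mean was 20.1 CPM and the Mir483Pat-KO mean 24.8, and the log2 fold change of 0.30 did not pass (edgeR adjusted p = 0.343). In the upper range they were 18.1 CPM in the single WT library and 28.9 in Mir483Pat-KO. With the range as a term in the fit the log2 fold change was 0.43 and it passed (edgeR adjusted p = 0.0291).

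Rag2, which encodes the partner subunit and is not a member, moved the same way. It lies on the plus strand close to Rag1 (GRCm38, chr2:101624718-101632529). Its level was 2.66, 2.35, 2.22, 2.16 and 1.62 CPM in WT and 3.04, 3.73, 4.06, 4.42 and 3.82 CPM in Mir483Pat-KO. The groups did not overlap, and between 23 and 58 counts stood behind each value. The log2 fold change was 0.80 ± 0.18 (SE), or 1.74-fold with a 95% interval from 1.34 to 2.26 (edgeR adjusted p = 0.0193). The call was lost without Mir483Pat-KO replicate 4 (log2 fold change 0.73, edgeR adjusted p = 0.0588) and in the lower range alone (log2 fold change 0.53, edgeR adjusted p = 0.381).

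The bases just before the start sites of these recombinase genes are shown because they were the B-lineage genes of the recombination step that rose, together with those of Igll1, a member that did not pass the test. Each window holds the 250 bases before the RefSeq start (GRCm38.p6), read 5′ to 3′ on the strand of the gene, and lies outside annotated exons. Capitals mark matches on either strand to CAGGTG or CAGCTG (letters bound by E proteins), GAGGAA (ETS factors) or TGGGAA (Ikaros).
Rag1, chr2:101649533-101649782, minus strand: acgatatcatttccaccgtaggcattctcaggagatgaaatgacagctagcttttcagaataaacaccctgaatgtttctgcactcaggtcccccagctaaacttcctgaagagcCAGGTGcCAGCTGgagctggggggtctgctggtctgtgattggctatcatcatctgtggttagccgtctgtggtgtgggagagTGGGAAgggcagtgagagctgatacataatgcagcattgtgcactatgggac
Rag2, chr2:101624462-101624711, plus strand: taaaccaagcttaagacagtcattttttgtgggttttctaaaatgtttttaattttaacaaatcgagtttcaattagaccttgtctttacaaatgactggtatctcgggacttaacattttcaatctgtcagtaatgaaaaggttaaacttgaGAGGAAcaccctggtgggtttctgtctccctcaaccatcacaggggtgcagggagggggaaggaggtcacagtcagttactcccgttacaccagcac
Igll1, chr16:16863986-16864235, minus strand: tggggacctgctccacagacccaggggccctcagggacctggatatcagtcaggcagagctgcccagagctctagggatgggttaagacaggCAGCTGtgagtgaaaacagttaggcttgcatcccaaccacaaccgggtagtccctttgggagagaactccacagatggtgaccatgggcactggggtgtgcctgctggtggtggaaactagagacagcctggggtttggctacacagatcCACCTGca

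The Rag1 window held CAGGTG at bases 135 to 130 before the start, CAGCTG at 128 to 123 and TGGGAA at 52 to 47. The Rag2 window held GAGGAA at bases 97 to 92 before its start and none of the other motifs. The Igll1 window held both E-protein motifs as well. Of the 8 members with a window, 4 held an E-protein motif (Rag1, Igll1, Vpreb1 and Cd79a), Ebf1 held ETS and Ikaros motifs without one, and Pax5, Vpreb3 and Il7r held none of the motifs searched. Of 32851 windows of the same length over all genes, 17.2% held CAGGTG, 13.0% CAGCTG, 23.3% GAGGAA and 21.6% TGGGAA, so these matches were common. The EBF motif, TCCC and GGGA with 2 bases of any kind between them (0.779% of windows), and the FOXO motif GTAAACA (3.17%) were found in the window of no member among the 8 that had one, nor in that of Rag2. No motif overlapped another in the 3 windows shown.

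Another gene of the locus, B230118H07Rik (Iftap in RefSeq), spans both Rag genes on the minus strand (GRCm38, chr2:101560781-101649532). Some of its transcripts start 31 bases from the annotated start of Rag1, and 1.211% of the exon bases of Rag1 lie in its exons on the same strand. Its level was 6.13, 5.28, 5.72, 4.47 and 5.92 CPM in WT and 7.81, 7.70, 7.05, 7.13 and 7.63 CPM in Mir483Pat-KO. The groups did not overlap, and the gene rose by a log2 fold change of 0.44 ± 0.12 (SE; edgeR adjusted p = 0.0434), a call that was lost in 12 of 20 alternatives. Of its exon bases, 1.865% are shared with Rag1 on the same strand and 4.85% with Rag2 on the opposite strand, and how much shared reads add to its count was not tested.

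The next genes on the same chromosome were not called. Traf6, a signal adaptor downstream of the TNF and interleukin 1 receptor families, had means of 25.1 ± 1.74 and 24.2 ± 1.55 CPM in WT and Mir483Pat-KO (SD, n = 5 each; log2 fold change −0.06, edgeR adjusted p = 0.724). Prr5l, a protein that associates with the mTOR complex 2, lay between 6.13 and 8.37 CPM in WT libraries and between 6.50 and 7.30 CPM in the mutants (log2 fold change −0.03, edgeR adjusted p = 0.906). Within 200 kb of Rag1 and Rag2 the annotation has 6 genes, of which 5 were tested. This window was chosen after the values of the Rag genes were seen.

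**Figure D2:**
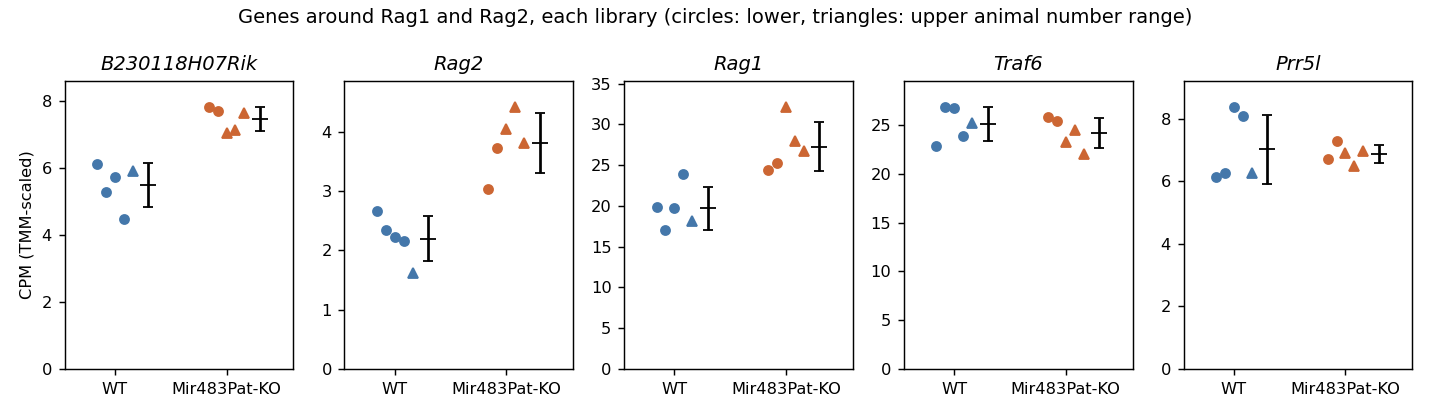
CPM (TMM-scaled) of the 5 tested genes within 200 kb of Rag1 and Rag2 in each library (blue WT, orange Mir483Pat-KO, bars mean ± SD, circles and triangles the lower and upper range of animal numbers). B230118H07Rik, Rag2 and Rag1 have groups that do not overlap, while Traf6 and Prr5l overlap.

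Rag1 was also set against the rest of the B-lineage signal in the same library. Per 100 CPM of the other 8 members its WT range was 16.5 to 23.0 CPM, and the Mir483Pat-KO range was 24.7 to 31.6. The means were 20.2 ± 2.69 and 27.4 ± 2.77 (SD, n = 5 each), and the groups did not overlap. For Rag2 the WT range was 1.48 to 2.81 and the Mir483Pat-KO range 3.19 to 4.19. The other 8 members summed to 98.1 ± 11.8 and 99.9 ± 8.77 CPM in WT and Mir483Pat-KO (SD, n = 5 each), with overlapping groups. These sums and ratios were taken as descriptions, without a test. Rag1 is the member that passed and the other 8 did not, so its ratio is not separate evidence for its rise.

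The surrogate light chain genes did not pass. Vpreb1, its variable-like part, measured 7.90, 4.78, 5.29, 9.39 and 9.94 CPM in WT and 6.17, 5.87, 7.81, 11.5 and 9.48 CPM in Mir483Pat-KO. The groups overlapped, although WT replicates 2 and 3 lay below all Mir483Pat-KO libraries and Mir483Pat-KO replicate 4 above all WT libraries. Vpreb1 was the most variable member, with a coefficient of variation of 31.4% in WT and 28.7% in Mir483Pat-KO. Its log2 fold change was 0.12 ± 0.22 (SE; edgeR adjusted p = 0.783), with an interval of the fold from 0.793 to 1.49. Of its exon bases 9.008% overlap Top3b on the opposite strand.

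Igll1, the constant-like part, measured 13.1, 14.5, 17.9, 18 and 18.3 CPM in WT and 15.7, 16.8, 16.2, 22.0 and 21.3 CPM in Mir483Pat-KO. Mir483Pat-KO replicates 4 and 5 stood above all WT libraries and the other 3 lay among them. The log2 fold change was 0.17 ± 0.12 (SE; edgeR adjusted p = 0.455), with an interval of the fold from 0.937 to 1.34. Vpreb3, a pre-B cell protein related in sequence to VPREB1, measured between 7.37 and 10.5 CPM in WT and between 6.51 and 9.38 CPM in the mutants (log2 fold change −0.11 ± 0.12, SE; edgeR adjusted p = 0.647).

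The receptor signalling chains had values below 0 on the log2 scale that did not pass. Cd79a measured 14.9, 12.0, 10.4, 13.6 and 18.3 CPM in WT and 12.5, 11.5, 13.3, 11.3 and 13.2 CPM in Mir483Pat-KO. WT replicate 5 was the highest library, and the Mir483Pat-KO libraries lay within the WT range. The log2 fold change was −0.16 ± 0.13 (SE; edgeR adjusted p = 0.501), with an interval of the fold from 0.738 to 1.08. Cd79b measured 18.7, 13.5, 12.0, 17.4 and 16.7 CPM in WT and 13.5, 12.4, 12.8, 19.2 and 13.6 CPM in Mir483Pat-KO, where replicate 4 stood apart from the other 4. Its log2 fold change was −0.14 ± 0.14 (SE; edgeR adjusted p = 0.601).

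The lineage transcription factors did not pass. Ebf1 measured between 8.46 and 10.6 CPM in WT and between 8.23 and 12.1 CPM in Mir483Pat-KO, with means of 9.36 ± 0.979 and 10.1 ± 1.42 (SD, n = 5 each) and a log2 fold change of 0.11 ± 0.12 (SE; edgeR adjusted p = 0.626). Pax5 measured 18.6 ± 2.47 and 18.9 ± 2.27 CPM (SD, n = 5 each). Its log2 fold change was 0.03 ± 0.11 (SE; edgeR adjusted p = 0.905), with an interval of the fold from 0.872 to 1.19, the narrowest of the 8 members that did not pass. Of the exon bases of Pax5, 8.596% overlap other genes on the opposite strand.

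Il7r, the interleukin 7 receptor chain that drives the growth of these progenitors, measured 10.2, 7.12, 7.30, 8.16 and 6.98 CPM in WT. In Mir483Pat-KO it measured 9.06, 7.62, 10.8, 11.8 and 7.77 CPM. Mir483Pat-KO replicates 3 and 4 lay above all WT libraries and the others overlapped them. The log2 fold change was 0.24 ± 0.15 (SE; edgeR adjusted p = 0.352), with an interval of the fold from 0.953 to 1.47. Over the 8 members that did not pass, the intervals of the fold reached down to 0.738 and up to 1.49. Between 57 and 419 counts stood behind each value of the 9 members.

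**Figure D3:**
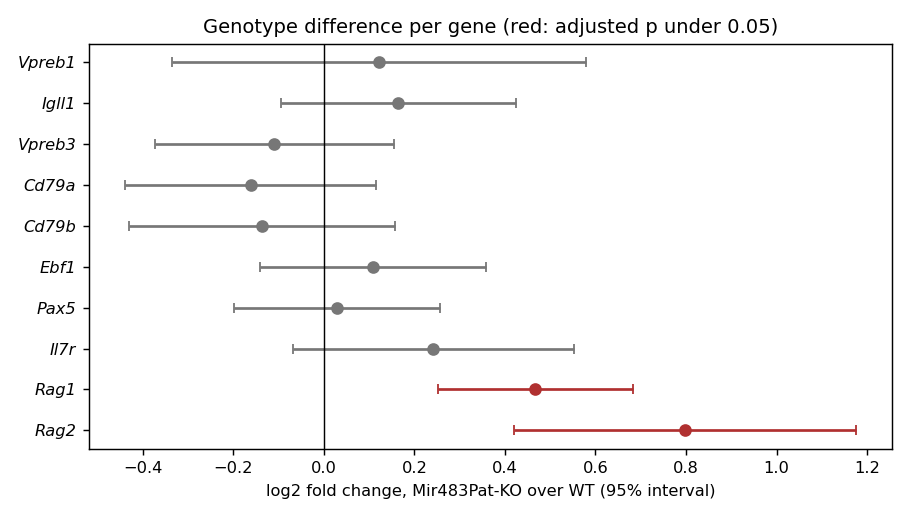
Log2 fold change of Mir483Pat-KO over WT with its 95% interval for the 9 members and Rag2 (edgeR, 5 libraries per genotype; red marks an adjusted p under 0.05). The intervals of Rag1 and Rag2 lie above 0, and those of the other 8 genes include 0.

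The members were also ordered by level in WT liver, in CPM per kilobase of exon. Cd79b (10.9), Vpreb3 (10.3), Cd79a (9.50), Igll1 (7.56) and Vpreb1 (6.22) came first, and the libraries of neighbours in that order overlapped. Rag1 followed at 2.98, below all Vpreb1 libraries, and Pax5 at 2.10, below all Rag1 libraries. Il7r (1.71) overlapped Pax5, and Ebf1 was lowest at 0.96, below all Il7r libraries. Rag2 measured 0.643 per kilobase, under Ebf1.

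Other genes of the pathway were taken from lists. Of 22 transcription factor genes tested, 0 passed in edgeR at an adjusted p under 0.05, with a median log2 fold change of −0.07. The list is not limited to factors particular to the B lineage and includes Id2, Id3, Runx1 and Myb. The smallest p-values belonged to Spib, an ETS factor of mature B cells and plasmacytoid dendritic cells (16.4 ± 3.85 CPM in WT, 11.7 ± 1.30 in Mir483Pat-KO, adjusted p = 0.0564), the E protein gene Tcf12 (53 ± 3.06 and 62.3 ± 4.49, adjusted p = 0.0607) and Ikzf3, an Ikaros-family factor (6.25 ± 1.32 and 4.34 ± 0.482, adjusted p = 0.066). Of 18 pre-B cell receptor signalling genes tested, 0 passed, and the smallest p was that of the kinase gene Blk (5.22 ± 0.844 and 3.77 ± 1.15 CPM, adjusted p = 0.173). All of these are SD over 5 libraries.

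Of 12 V(D)J recombination genes tested, Rag2 rose and 0 fell, beside 2.43% of all genes tested that were higher. With 1 gene called, the count is not set apart from that share. The list holds Rag2, HMGB cofactors of RAG cleavage and factors that join the cut ends, among others, and its median log2 fold change was 0.05. After Rag2 the smallest p-values were those of Hmgb1 and Prkdc, at log2 fold changes of 0.17 and 0.19 (edgeR adjusted p = 0.154 and 0.222). Dntt, the enzyme that adds untemplated bases at the joints and is typical of adult B-cell development, had 9 counts over all 10 libraries and reached at most 0.18 CPM.

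Of 17 genes of the cytokine receptor pathway tested, 2 rose and 0 fell, beside 2.43% of all genes tested that were higher; with so few genes the count is not set apart from that share. Pim1, a kinase gene induced by cytokine receptors, measured between 114 and 146 CPM in WT and between 154 and 202 CPM in the mutants (log2 fold change 0.48 ± 0.08, SE; edgeR adjusted p = 0.00455). Socs3, an inhibitor of the same signalling, measured between 9.51 and 12.1 CPM in WT and between 12.5 and 17.3 CPM in the mutants (log2 fold change 0.42 ± 0.11, SE; edgeR adjusted p = 0.0379). Socs1, an inhibitor of the same family, had too few counts to be tested and lay between 0.622 and 1.31 CPM in WT and between 0.306 and 0.541 CPM in the mutants, so its groups did not overlap, in the opposite direction. Pim1 and Socs3 are active in many cell types, hepatocytes included, and the RNA of whole liver does not assign them to one. The niche chemokine gene Cxcl12 measured 145 ± 17.5 and 115 ± 14.6 CPM (SD, n = 5 each; edgeR adjusted p = 0.0515).

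Heavy chains are made before light chains as B cells develop. The heavy-chain constant gene Ighm measured between 57.1 and 96.3 CPM in WT and between 60.2 and 81.9 CPM in Mir483Pat-KO, while the light-chain constant gene Igkc measured between 3.65 and 10.2 and between 4.48 and 6.41 CPM. Of 3 constant-region genes tested, 0 passed, and the log2 fold changes were −0.14 for Ighm, −0.42 for Igkc and 0.27 for Ighd (edgeR adjusted p = 0.518, 0.247 and 0.489). Summed over 183 annotated genes, heavy-chain variable segments reached 6.64 ± 2.06 and 5.19 ± 0.89 CPM in WT and Mir483Pat-KO (SD, n = 5 each). The 160 kappa variable segments summed to 2.44 ± 1.13 and 2.36 ± 0.45 CPM. Reads of these segments can be shared between near-identical copies, so single segments are not given.

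Of 24 further genes tested from a list of B-lineage surface molecules and other B-lineage genes, Cd24a rose and 0 fell. Over all genes tested 2.43% were higher, and with 1 gene called the count is not set apart from that share. Cd24a, which is also abundant on erythroid precursors, measured between 621 and 890 CPM in WT and between 943 and 1170 CPM in the mutants (log2 fold change 0.43 ± 0.09, SE; edgeR adjusted p = 0.0161). Cd22 measured 10.6 ± 2.15 and 8.22 ± 1.74 CPM, and Arpp21 1.71 ± 0.364 and 2.37 ± 0.478 CPM (SD, n = 5 each; edgeR adjusted p = 0.173 and 0.222).

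**Figure D4:**
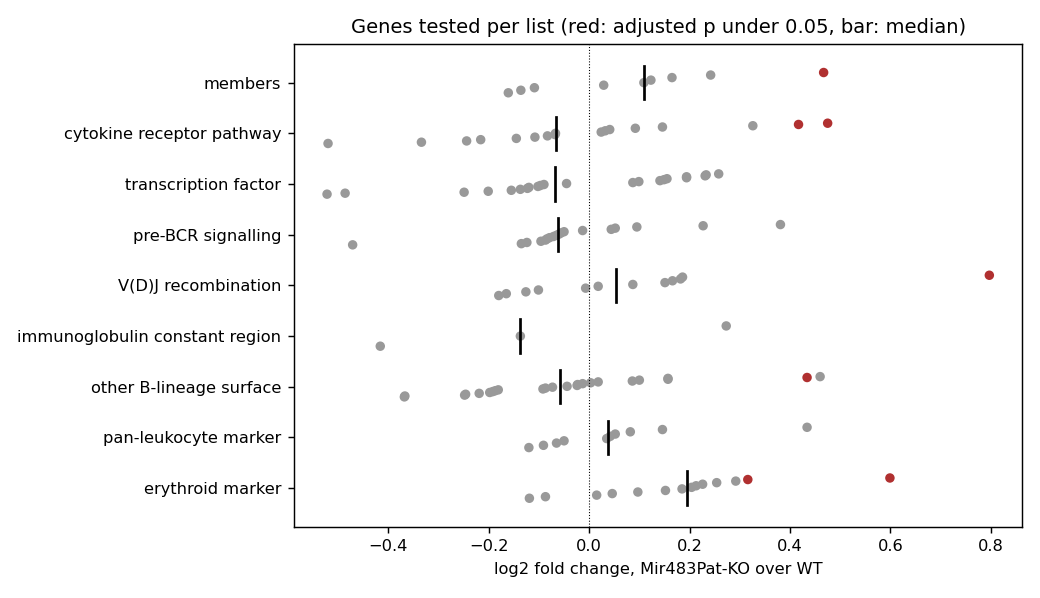
Log2 fold change of Mir483Pat-KO over WT for each tested gene of the members, 6 further B-lineage lists, the pan-leukocyte list and the erythroid list (points; red marks an adjusted p under 0.05; black bars are medians). The highest point is Rag2 at 0.80, and the medians of the B-lineage lists lie between −0.14 and 0.11.

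Markers of other blood and liver cells were read beside these values. Of 12 T cell markers, 11 stayed under 1 CPM in all 10 libraries and 1 was at 0 in all of them. The list summed to between 5.94 and 8.93 CPM in WT and between 6.38 and 7.10 CPM in Mir483Pat-KO. Most of it came from the kinase gene Lck, and which cells expressed Lck was not determined. Of 10 pan-leukocyte markers 0 passed, and their sums overlapped, at 652 to 811 CPM in WT and 716 to 785 CPM in Mir483Pat-KO. Macrophage markers fell in 2 of 12 cases, hepatocyte markers in 1 of 13 and endothelial markers in 1 of 10, and 0 genes passed among natural killer, plasmacytoid dendritic, progenitor, neutrophil, megakaryocyte and mesenchymal markers. Of all genes tested 5.19% passed in either direction, and counts of 1 or 2 genes in lists of this size are not set apart from that share. The median log2 fold change was −0.39 for the mesenchymal list (8 of 10 genes tested below 0), −0.13 for the hepatocyte list (11 of 13 below 0), −0.14 for the endothelial list (9 of 10 below 0) and 0.19 for the erythroid list (12 of 14 above 0), beside 0.0042 over all genes tested. For the megakaryocyte list the median was −0.17 (6 of 8 below 0), and for the plasmacytoid dendritic list 0.16 (4 of 4 above 0). Of 14 erythroid markers 2 rose. The erythroid list summed to between 5870 and 7100 CPM in WT and between 6860 and 8070 CPM in Mir483Pat-KO. The share of counts in haemoglobin genes was 1.33% ± 0.168 for WT and 1.88% ± 0.342 for the mutants (SD, n = 5 each; two-sided exact permutation test, p = 0.0159). The groups overlapped, with WT up to 1.61% and the mutants from 1.42%, and the difference of the means fell from 0.549 to 0.166 percentage points in the lower animal number range alone. The part of these other cell types in the differences of Rag1, Rag2 and Cd24a was not tested.

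Over the 10 libraries, the genes whose level most resembled the mean log2 CPM of the members, of 13903 candidates, were Eif3k (Pearson r = 0.94), Nosip (0.94), 5730409E04Rik (0.937), Rgs12 (0.929) and Gins2 (0.92). These correlations share the libraries and their scaling, and with so many candidates they are given as a description. None of these 5 genes passed the genotype test.

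The deleted gene gives rise to the microRNAs below, shown 5′ to 3′ from RefSeq (GRCm38.p6) with the seed, bases 2 to 8, in capitals. They are shown because the seed is the part that pairs with target messages.
miR-483-3p, chr7:142654932-142654952, minus strand: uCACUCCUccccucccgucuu
miR-483-5p, chr7:142654968-142654989, minus strand: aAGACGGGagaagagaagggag
The longest annotated 3′ UTR of each of the 9 members and of Rag2 held 0 matches to the site AGGAGTG of miR-483-3p and 0 to the site CCCGTCT of miR-483-5p. Of 21004 genes with a 3′ UTR, 10.7% held the former and 2.68% the latter. The 3′ UTR of Rag1 is 3391 bases long and that of Rag2 1599.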

How the data were processed

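Liver RNA of 10 fetuses was analysed. The authors made stranded polyA libraries and aligned and counted paired-end reads with STAR on GRCm38. The deposited values are raw counts, 1 row per Ensembl gene. The strand and multi-mapping rules of the counting are not given in the sources used here. Groups came from the sample labels. The p-values set the genotype difference against the spread between fetuses. The litter of each fetus is not given in the sources used here and was not modelled.

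Counts were tested in edgeR 4.0.16 (R 4.3.3) with default filterByExpr, TMM, the quasi-likelihood F-test without covariates and Benjamini-Hochberg adjustment over 14098 genes. Totals of 10831350 to 14765880 counts set the precision, and the common biological coefficient of variation was 0.111. On simulated data for this comparison (13992 genes, 200 changed 2-fold), 89.5% of changed genes were recovered, and 4.3% of the genes that passed were false. Smaller changes were not simulated, so the recovery of changes as small as those of the members is not known. GENCODE M21 (GRCm38) gave positions, exons and 3′ UTRs, and 55141 genes matched a symbol.

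The members and the 18 further lists were chosen with earlier results of these data known, and the motifs and the Rag locus window after the values of the Rag genes were seen. All members were named whatever their result. From each B-lineage list, up to 3 genes with the smallest p and all that passed (at most 6) qualified, and Dntt, Lck and Socs1 were added after their values were seen. The 5 genes most like the members were those with the highest Pearson r (log2 CPM, prior count 2, average log2 CPM at least 0).

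Alternatives were limma-voom, DESeq2 1.42.0, a robust fit, RLE scaling, no filter, at least 10 counts in every library, GC content and length offsets, the replicate block, the animal number range and leaving out each library.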

Additional observations from a re-analysis of the deposited data

Results flagged for a closer look

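Cd79b measured 19.2 CPM in Mir483Pat-KO replicate 4, far from the other 4 libraries of its group, which lay between 12.4 and 13.6 CPM. The gap to the nearest library was 0.827 of the range of the group, above Dixon's 95% critical value of 0.71 for 5 samples. It was 1 of 26 groups of 5 libraries examined, and chance alone marks about 1 in 20.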

How the results depend on the processing

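Over 20 alternatives, Rag1 and Rag2 kept their direction (log2 fold change 0.298 to 0.538 and 0.529 to 0.864). The members called fell from 1 to 0 in the lower animal number range alone and without Mir483Pat-KO replicate 4, and stood at 0 to 1 when each library was left out. Fewer libraries entered the fit in both cases. The 8 members that did not pass stayed so in each alternative. Vpreb1 changed sign with the animal number range as a covariate (−0.132) and in the lower range alone (−0.186), and lay between −0.031 and 0.252 when each library was left out. Pax5 changed sign with that covariate (−0.015) and lay between −0.034 and 0.071 when each library was left out. The cause was not tested.

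Of all genes, 731 passed at an adjusted p under 0.05. The count was 1258 without a low-count filter, 1189 with the range as a covariate, 23 in the lower range alone and 1160 in DESeq2, and 279 to 863 when each library was left out. With a fold over 1.5 it was 173, against 321 without the filter, 21 in the lower range alone and 97 to 233 when each library was left out. Replicate numbers did not pair the fetuses (mean r 0.0871 for equal and −0.0217 for other numbers). With the replicate block 1338 genes passed, 216 of them with the fold limit, and Rag1 stayed called. B230118H07Rik was no longer called in 12 of 20 alternatives (log2 fold change 0.365 to 0.521). The difference in haemoglobin share was 0.166 percentage points in the lower range alone against 0.549 in all libraries.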
